A study of Mus musculus with 4 samples.

Results

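The let-7 and miR-98 family was followed in small RNA sequencing libraries of mouse aorta. The members were taken by name: the 5p arms of let-7a, let-7b, let-7c, let-7d, let-7e, let-7f, let-7g, let-7i and miR-98, plus let-7i-3p, the other strand of the let-7i hairpin. All 10 were found among the 1152 entries listed for every library, and all 10 passed the filter of a mean of at least 1 CPM (counts per 1000000 listed reads), as did 479 entries in all. The study profiled miRNAs in a model of vascular calcification caused by chronic kidney disease (CKD). Its 2 groups, Sham and CKD, are of wild type C57BL/6 mice, 12-week by their age label, with 2 libraries each, and RNA from 4 samples was pooled into a library. In the model both ends of the left kidney are cut away, the right kidney is taken out 1 week later, and the mice then get chow with 2% phosphate and drinking water with 0.45% NaCl for 4 weeks. The labels word this treatment alike for both groups, so the surgery and diet of the Sham mice are unknown from the sources used here. Nothing in the labels says whether the 2 pools of a group came from different mice, so every p-value reflects no more than the scatter among these pools, which may be technical.

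let-7 miRNAs are among the most conserved in animals and were found as timers of development in the worm. They accumulate as cells differentiate, repress growth genes such as Ras, Myc and Hmga2, and are held back in stem cells by the RNA-binding protein Lin28, which blocks the cutting of their precursors. Adult tissues, the smooth muscle of arteries among them, express several members at once. A miRNA finds its targets mainly through its seed, bases 2 to 8, so members with one seed share most predicted targets. A hairpin gives a 5p and a 3p strand, and for let-7 the 5p strand is the one that is mostly kept.

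The mature sequences are shown because the 9 members differ by so few bases that the sharing of reads between them bears on every value that follows. They are from RefSeq (GRCm38.p6), 5′ to 3′, with the seed in capitals.
let-7a-5p: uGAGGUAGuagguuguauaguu
let-7b-5p: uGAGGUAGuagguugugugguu
let-7c-5p: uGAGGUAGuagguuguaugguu
let-7d-5p: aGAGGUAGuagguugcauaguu
let-7e-5p: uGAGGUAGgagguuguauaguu
let-7f-5p: uGAGGUAGuagauuguauaguu
let-7g-5p: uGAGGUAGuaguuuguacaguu
let-7i-5p: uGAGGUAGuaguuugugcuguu
miR-98-5p: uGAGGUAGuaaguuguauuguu

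All 9 are 22 nt long and carry the same seed, and their bases vary at 8 of the 22 positions, all outside it. Positions below are counted from 1 at the 5′ end, with the base of the first-named member given first. Of the 36 pairs of members, 4 differ at a single base. These are let-7a-5p and let-7c-5p (A19G), let-7a-5p and let-7e-5p (U9G), let-7a-5p and let-7f-5p (G12A), and let-7b-5p and let-7c-5p (G17A). The most distant pair, let-7d-5p and let-7i-5p, differs at 6 bases. let-7i-5p stands at least 2 bases from every other member, and let-7g-5p (A17G and A19U, read from let-7g-5p) is its nearest. The treatment of reads that match several members, or match with a mismatch, was not stated in the sources used here, so the split between members 1 base apart is uncertain. Of the 900 listed entries that matched a RefSeq mature sequence by name, 10 carry this seed: the 9 members and let-7k.

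The hairpins are spread over the genome (GRCm38.p6 coordinates, with GENCODE vM21 for genes on the same strand). On chromosome 13, Mirlet7d (48536012 to 48536114), Mirlet7f-1 (48537829 to 48537917) and Mirlet7a-1 (48538179 to 48538272) lie in exonic sequence of the long noncoding RNA 6720427I07Rik. Mirlet7c-2 (85706603 to 85706697) and Mirlet7b (85707319 to 85707403) lie on chromosome 15 in exonic sequence of Lncppara. Mirlet7c-1 (chromosome 16, 77599657 to 77599750) lies in an intron of Mir99ahg, 656 bases from Mir99a. Mirlet7e (chromosome 17, 17830352 to 17830444) lies in an intron of Spaca6, 367 bases from Mir125a. On chromosome 9, Mirlet7a-2 (41536716 to 41536811) lies in an intron of 3110039I08Rik with Mir100 and Mir125b-1, and Mirlet7g (106178840 to 106178927) in an intron of Wdr82. Mirlet7f-2 (151912346 to 151912428) and Mir98 (151913214 to 151913321) lie on chromosome X in an intron of Huwe1, and Mirlet7i (chromosome 10, 122985640 to 122985724, minus strand) stands alone, over an exon of the transcribed pseudogene D630033A02Rik. Mature let-7a, let-7c and let-7f each come from 2 of these hairpins, so their values cannot be assigned to 1 locus.

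The libraries held between 16658810 and 17532748 listed reads, recovered from the deposited CPM, and intervals on shares of reads cover counting error only. miR-143-3p, the main miRNA of contractile smooth muscle, filled 725182 to 798183 CPM in Sham and 407824 to 411359 CPM in CKD. The values of each library sum to a fixed total, so a lower miR-143-3p and higher values of the other entries in CKD go together. Which of the 2 changed cannot be told from CPM. For this reason 3 scales are given: the deposited CPM; the CPM divided by TMM factors, which take out the shift shared by most entries (0.479 and 0.696 for Sham, 1.81 and 1.66 for CKD); and the CPM scaled to the summed 9 5p arms of each library, which shows members against their own family. The tests of single entries are limma on log2(value + 1) over the 479 entries, two-sided, with Benjamini-Hochberg adjustment over all of them and a threshold of 0.05. A difference is always CKD minus Sham on that log2 scale, which understates change at low values.

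The family as a whole was a larger part of the listed reads in CKD. The 9 5p arms took up 2.84% and 3.67% of the listed reads in Sham, against 6.68% and 8.40% in CKD. In pooled tissue, fewer cells of a type and less RNA per cell cannot be told apart. The Wilson 95% intervals ran from 2.83% to 2.84% in the first Sham library and from 8.39% to 8.42% in the second CKD library. Both CKD libraries lay above both Sham libraries, and the group means were 3.26% ± 0.593 and 7.54% ± 1.22 (SD, n = 2), a 2.32-fold difference. By a two-sided exact permutation test over the libraries p = 0.333, the smallest that 2 against 2 can give. Among the reads other than miR-143-3p the family made up 14.1% and 13.4% in Sham, against 11.4% and 14.2% in CKD, so there the groups overlapped. Leaving miR-143-3p out of the total thus removed the separation of the groups. With TMM scaling its sum was 59255 and 52813 in Sham and 36942 and 50623 in CKD, both CKD libraries below both Sham libraries.

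Levels within the family differed widely, and their order was nearly fixed. Ranked by deposited CPM, let-7c-5p was first, followed by let-7f-5p, let-7a-5p and let-7g-5p, in each of the 4 libraries. At the other end let-7d-5p, let-7e-5p and miR-98-5p were the lowest, in that order, in all 4. The only exchange was between let-7i-5p and let-7b-5p: let-7i-5p ranked 5 in both Sham libraries and 6 in both CKD libraries. As all members have one length, these levels can be set side by side, but adaptor ligation is known to favour some sequences. Across the libraries of a group, the ranges of let-7c-5p and let-7f-5p, of let-7f-5p and let-7a-5p, and of let-7i-5p and let-7b-5p overlapped in both groups.

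let-7c-5p, the highest member, had 6369 and 7896 CPM in Sham, against 13976 and 17929 CPM in CKD. let-7f-5p had 5262 and 7001 CPM in Sham, against 13535 and 17546 CPM in CKD. For let-7a-5p the values were 4600 and 5807 CPM in Sham, against 10377 and 13816 CPM in CKD. These 3, which differ from one another at 1 or 2 bases, were the highest members in every library. let-7g-5p had 3429 and 4514 CPM in Sham, against 9367 and 11301 CPM in CKD. let-7i-5p had 3072 and 4155 CPM in Sham, against 5865 and 6667 CPM in CKD. let-7d-5p had 1916 and 2681 CPM in Sham, against 5613 and 6239 CPM in CKD. In all of these the CKD libraries lay above the Sham libraries, and the second library of each group was above the first. The remaining 5p arms, let-7b-5p, let-7e-5p and miR-98-5p, behaved likewise, with miR-98-5p at only 68.5 and 90.6 CPM in Sham, against 167 and 216 CPM in CKD.

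**Figure D1:**
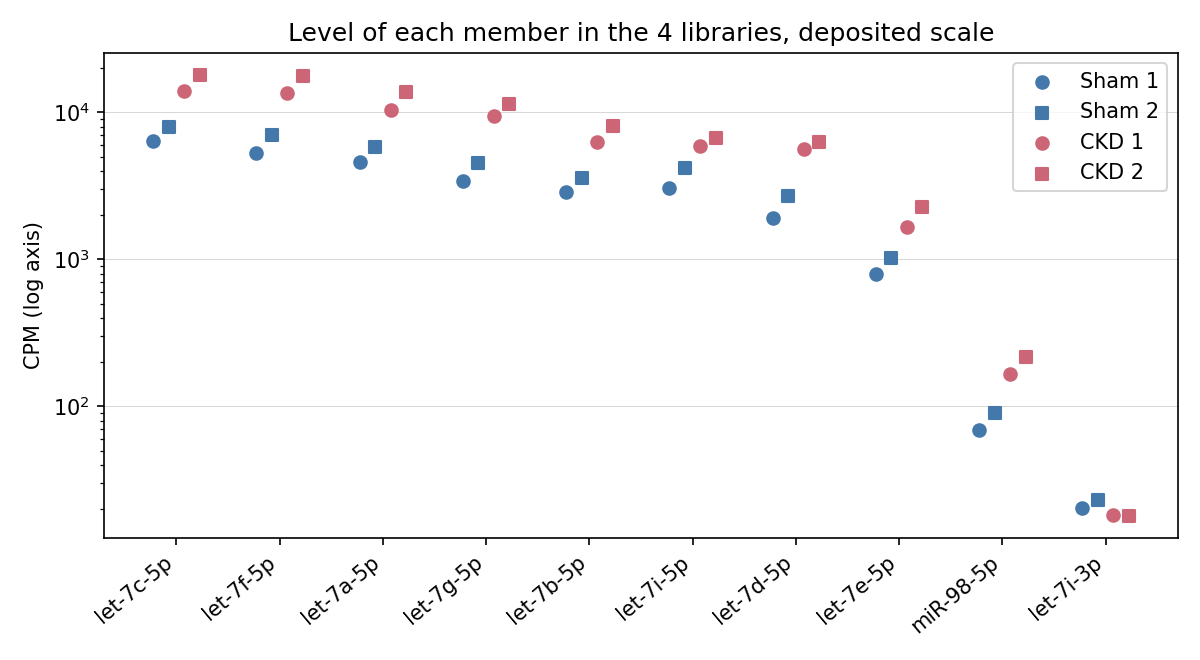
Deposited CPM of each member (log axis) in the 2 Sham libraries (blue) and the 2 CKD libraries (red), 1 point per library, ordered by mean level. All 9 5p arms are higher in both CKD libraries, while let-7i-3p, at 18.1 to 23.1 CPM, is slightly lower in both.

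All 9 5p arms rose in the deposited CPM, by a median of 1.21, with limma adjusted p from 0.0023 for let-7f-5p to 0.035 for let-7i-5p. Of all 479 entries 82.9% were called higher on this scale and 1.04% lower (83.9% in all), and 91.2% had both CKD libraries above both Sham libraries. The median over all entries was 1.34, so 9 of 9 is close to the background. let-7g-5p had the largest ratio of group means, 2.60-fold, and let-7i-5p the smallest, 1.73-fold. The deposited calls were not kept without either CKD library. Such a fit leaves 1 library in that group, so a lost call does not show a smaller difference. Without CKD 1 the differences ran from 0.90 for let-7i-5p to 1.53 for let-7f-5p. Without CKD 2 they ran from 0.715 for let-7i-5p to 1.31 for let-7d-5p. Without Sham 1, let-7e-5p and let-7i-5p lost their calls, at differences of 0.91 and 0.59.

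With TMM scaling none of the 9 5p arms passed the threshold (limma), and 1 of them, let-7i-5p, had an unadjusted p under 0.05; the quasi-likelihood test of edgeR, run on recovered reads, called none of them either. All 9 differences were below 0, from -0.78 to -0.20 with a median of -0.37, against a median of -0.00 over all entries, of which 50.1% were below 0 and 7.72% were called (1.88% higher and 5.85% lower). In 7 of the 9 both CKD libraries lay below both Sham libraries, where 31.5% of all entries did, and let-7f-5p and let-7g-5p overlapped. That count includes near ties between CKD 2 and Sham 2: 8323 against 8346 for let-7a-5p, and 130.1 against 130.2 for miR-98-5p. All members of a library share its factor, so they do not separate independently. Scaling to library totals without miR-143-3p moved let-7d-5p, let-7f-5p and let-7g-5p just above 0 (0.06, 0.02 and 0.06), so the direction of these 3 depends on the scaling. The other 6 stayed below 0 with TMM and with the 4 scalings run in its place (median of ratios, upper quartile, and totals without miR-143-3p or without the 10 most abundant entries).

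let-7i-5p lay lowest of the 5p arms on all 3 scales. Its TMM-scaled values were 6418 and 5972 in Sham and 3243 and 4016 in CKD, and the difference was -0.78 (SE 0.15, limma adjusted p = 0.052). This missed the threshold. Of 12 alternatives that kept all libraries it passed in 4: with upper-quartile scaling (limma adjusted p = 0.047), with totals without the 10 most abundant entries (0.035), with a minimum mean of 10 CPM (0.038) and with let-7a, let-7c, let-7e and let-7f summed (0.049). In the other 8 limma or edgeR adjusted p ran from 0.054 with a pseudocount of 0.1 to 0.13 without a filter on low values. It did not pass without any 1 library, at differences from -0.93 to -0.63, in fits that leave 1 library in a group.

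**Figure D2:**
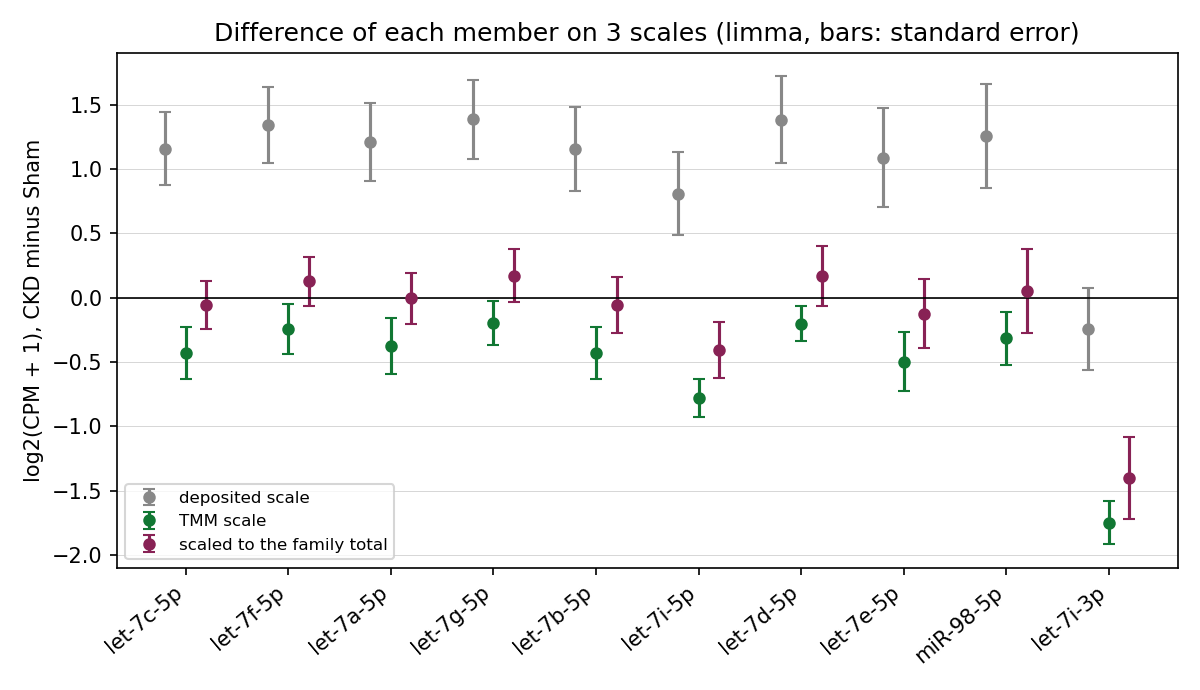
Difference between CKD and Sham in log2(CPM + 1) for each member on the deposited scale (grey), with TMM scaling (green) and scaled to the family total (purple), with limma standard errors as bars. The 5p arms sit above 0 on the first scale, below 0 on the second (let-7d-5p, let-7f-5p and let-7g-5p just above 0 on totals without miR-143-3p) and around 0 on the third, and let-7i-3p lies at -1.75 and -1.40 on the last pair.

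Composition of the family does not depend on how the libraries are scaled, and its largest difference between Sham and CKD was in let-7i-5p. let-7i-5p made up 10.8% and 11.3% of the 5p family reads in Sham and 8.78% and 7.93% in CKD, a difference of -2.71 percentage points. let-7f-5p went the other way, from 18.6% and 19.1% to 20.3% and 20.9%, and so did let-7g-5p, from 12.1% and 12.3% to 14.0% and 13.4%. Those 3 shares differed between the groups by several times the spread within a group: 8.36% ± 0.597 against 11.1% ± 0.336 for let-7i-5p, 20.6% ± 0.441 against 18.8% ± 0.353 for let-7f-5p, and 13.7% ± 0.404 against 12.2% ± 0.137 for let-7g-5p (CKD against Sham, SD, n = 2). let-7d-5p had 6.75% and 7.30% in Sham and 8.40% and 7.42% in CKD, so the groups nearly met. let-7a-5p, at 16.2% and 15.8% in Sham and 15.5% and 16.4% in CKD, overlapped. let-7b-5p, let-7c-5p and let-7e-5p were lower in both CKD libraries by less than 1 point each, and miR-98-5p stayed between 0.241% and 0.257%.

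For all 9 shares the exact permutation test gave p of 0.333 or 1, and no Wilson interval of a share was wider than 0.116 points to either side. Shares of one total are tied to each other, so a lower share of let-7i-5p would by itself lift the rest. The shares of let-7b-5p, let-7c-5p and let-7e-5p were nevertheless lower in CKD too. In the fit scaled to the family total, none of the 9 passed (limma; 0 at an unadjusted p under 0.05), where 3.34% of all entries were called (1.88% higher and 1.46% lower). Differences of 5 of the 9 were below 0, as were 25.1% of all entries. The 9 members set this scale themselves, so their median, -0.00, lies near 0 by construction, against 0.33 over all entries. A split of members to both sides is thus built in. For member counts on this scale, here and below, the shares over all entries are no yardstick. let-7i-5p had the largest departure, -0.41 (SE 0.22, limma adjusted p = 0.28), and let-7g-5p lay at 0.17 and let-7f-5p at 0.13. The test thus did not separate any 5p arm from its family, although both CKD libraries lay below both Sham libraries in 4 of the 9 (11.1% of all entries) and above in another 4 (45.9% of all entries). limma borrows variance across all tested entries, so its standard errors are not the spread of these 9 shares alone. Missing the threshold therefore does not show that a member kept its share.

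Between the group means, 4.21% of the family's reads would have to change member to turn one composition into the other. Between the 2 Sham libraries this was 1.71%, between the 2 CKD libraries 2.39%, and between a Sham and a CKD library 3.77% to 5.29%. Every cross-group pair was therefore further apart than either pair within a group. All of these exceed counting noise, since the chi-square per degree of freedom was 49.0 within Sham and 265 within CKD. With let-7a, let-7c, let-7e and let-7f summed, the difference between the group means was 3.10%, so most of it does not lie between these close sequences.

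**Figure D3:**
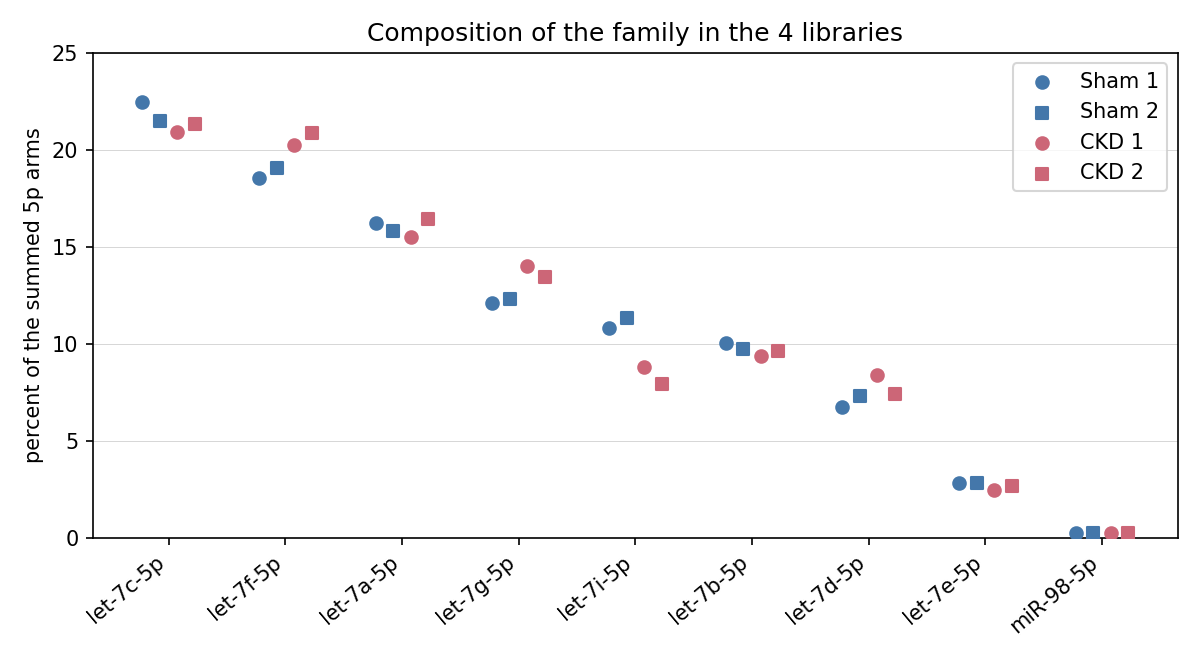
Share of each 5p arm in the summed 5p family reads (percent, axis from 0) in the 2 Sham (blue) and 2 CKD (red) libraries, 1 point per library. let-7i-5p is at 10.8% and 11.3% in Sham and at 8.78% and 7.93% in CKD, and let-7f-5p and let-7g-5p are higher in both CKD libraries.

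let-7c-5p and let-7e-5p were also summed, a pair chosen because some let-7 precursors are known to be ready for Dicer without the added uridine that most need. The pair does not isolate that property, since mature let-7c and let-7a each come from 2 hairpins, and its values are given as a share only. Together they made up 25.3% and 24.3% of the family in Sham, against 23.4% and 24.0% in CKD. The log2 ratio of the pair to the other 7 members differed by -0.08 (exact permutation p = 0.333, the smallest possible). Both CKD libraries were lower, but the difference between the group means, -1.08 percentage points, was about as large as the gap between the 2 Sham libraries.

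let-7i-3p was the member that set itself apart. It had 20.2 and 23.1 CPM in Sham and 18.1 CPM in both CKD libraries, from 354 and 390 reads in Sham and 318 and 301 in CKD. On the deposited scale, where 82.9% of entries were called higher, its difference was -0.24 (SE 0.32, limma adjusted p = 0.48), and only 14 of the 479 entries (2.92%) had a difference below 0. With TMM scaling the values were 42.2 and 33.2 in Sham and 10.0 and 10.9 in CKD, and it fell, with a difference of -1.75 (SE 0.17, limma adjusted p = 0.012). That was the seventh lowest difference of the 479 entries, of which 5.85% were called lower. Scaled to the family total it had 38.5 and 34.0 in Sham and 14.7 and 11.6 in CKD, and fell as well, with a difference of -1.40 (SE 0.32, limma adjusted p = 0.030), with 1.46% of entries called lower. The TMM call was lost without any 1 library, at differences from -1.92 to -1.62 (limma adjusted p = 0.079 without Sham 1, 0.051 without Sham 2, 0.17 without CKD 1 and 0.13 without CKD 2), and the call on the family scale likewise (0.10 to 0.32). On the family scale it was also lost with a pseudocount of 10 (limma adjusted p = 0.056) and without a variance trend (0.061).

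The let-7i hairpin is shown with its 2 arms in capitals, because the 5p and the 3p strand each had the lowest difference between CKD and Sham among the arms of their kind. It is read from the minus strand of chromosome 10 (GRCm38.p6).
Mirlet7i: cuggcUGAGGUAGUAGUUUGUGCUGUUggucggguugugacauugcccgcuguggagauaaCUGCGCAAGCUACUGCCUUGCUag

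Within a library the ratio of the arms needs no scaling. Reads of let-7i-3p were 0.658% and 0.556% of those of let-7i-5p in Sham and 0.309% and 0.271% in CKD. Both CKD libraries lay below both Sham libraries, and the mean log2 ratio was lower by 1.06, from -7.37 ± 0.171 to -8.43 ± 0.135 (SD, n = 2), a 2.09-fold lower ratio. By the exact permutation test p = 0.333, the smallest possible here. In a limma fit with each library scaled to let-7i-5p, chosen after the data were seen, let-7i-3p differed by -1.01 (adjusted p = 0.021). That fit takes up the same ratio again, so its p-value adds no support.

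The other 3p arms of the family were higher in both CKD libraries on the deposited scale, as most entries were. These passenger strands are usually discarded, and their seeds differ from the family's. Of the 12 on the list 11 were tested, since let-7a-2-3p, at 0.34 to 1.77 CPM, was below the filter. On the deposited scale 10 of the 11 rose, by 0.87 to 2.03, and the exception was let-7i-3p. With 82.9% of all entries called higher on this scale, that count is near the background. Among the tested arms let-7a-1-3p and let-7c-2-3p have the same sequence and the same values, so they are 1 measurement. let-7d-3p, the highest, had 58.5 and 86.0 CPM in Sham, against 303 and 208 CPM in CKD. The shared let-7a-1-3p and let-7c-2-3p sequence had 37.6 and 58.8 CPM in Sham, against 190 and 166 CPM in CKD. let-7b-3p had 12.6 and 14.6 CPM in Sham, against 55.8 and 41.8 CPM in CKD. let-7i-3p was thus above let-7b-3p in both Sham libraries and below it in both CKD libraries. With TMM scaling the other 10 tested arms lay between -0.19 and 0.76 and none passed (limma; smallest adjusted p = 0.13, with 4 at an unadjusted p under 0.05; edgeR 0), although 7 of the 10 were higher in both CKD libraries, where 28% of all entries were. Together, with the shared sequence counted once, the 3p arms other than let-7i-3p summed to 129 and 193 CPM in Sham, against 658 and 501 CPM in CKD. Scaled to that sum, an alternative chosen after the data were seen, let-7i-3p differed by -2.01 (limma adjusted p = 0.016). The sum was already seen to be higher in CKD, so the direction was set by this choice and the p-value adds no support.

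As a percentage of the 5p arm of the same name, 9 of the 12 3p arms were higher in both CKD libraries, let-7f-2-3p and let-7g-3p overlapped, and let-7i-3p alone was lower in both. Among the 9, let-7a-1-3p and let-7c-2-3p hold the same 3p values, and let-7a-2-3p was below the filter. Over all hairpins in the background described next, 30% were higher in both and 30% lower in both. That background is a narrower set, of names with both arms at a mean of at least 1 CPM. Of the family it holds let-7b, let-7d, let-7e and miR-98, higher in both, let-7g, which overlapped, and let-7i. let-7d-3p stood at 3.05% and 3.21% of let-7d-5p in Sham and at 5.39% and 3.34% in CKD. let-7e-3p stood at 0.930% and 1.18% of let-7e-5p in Sham and at 2.16% and 1.21% in CKD, and miR-98-3p at 0.917% and 1.31% of miR-98-5p in Sham and at 2.77% and 1.45% in CKD. In these 3 the first CKD library was far above the second, which was close to the higher Sham value, so the distance between the groups lies mostly in CKD 1. For let-7a, let-7c and let-7f the 5p arm comes from 2 hairpins and each 3p arm is named for 1, so their percentages are not ratios within a hairpin. Reads of the sequence shared by let-7a-1-3p and let-7c-2-3p can come from either of their hairpins.

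**Figure D4:**
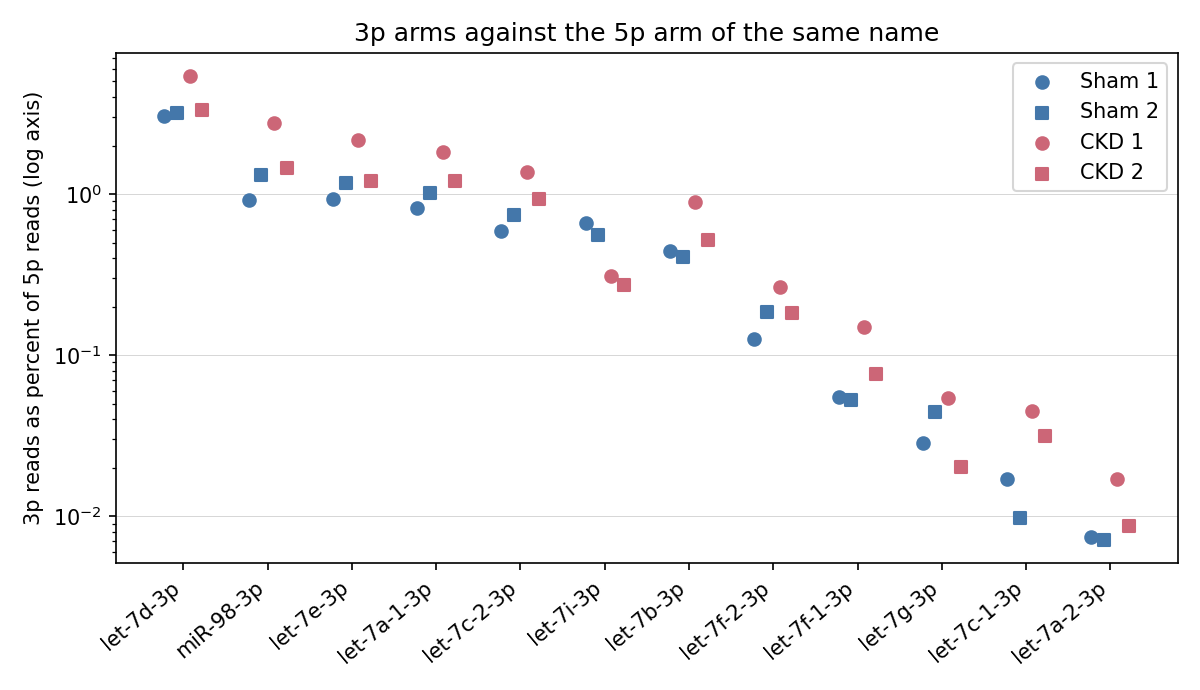
Reads of each 3p arm as a percent of the 5p arm of the same name (log axis) in the 2 Sham (blue) and 2 CKD (red) libraries, 1 point per library. let-7i-3p, at 0.658% and 0.556% in Sham and 0.309% and 0.271% in CKD, is the arm whose CKD points both lie below its Sham points.

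For scale, the same change in log2 arm ratio was taken, after the data were seen and with 0.1 CPM added to each value, over the 130 listed names with both arms at a mean of at least 1 CPM. Its median was -0.01 and its median size 0.41. let-7i, at -1.06, ranked ninth from the lowest, and 12 of the 130 changed at least as much in either direction. The other family names in this set were let-7g (-0.16), let-7d (0.44), let-7e (0.62), let-7b (0.67) and miR-98 (0.74). The change in let-7i was thus among the larger ones but not outside the range of other hairpins, such as miR-21a at -2.01 and miR-423 at -1.58.

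**Figure D5:**
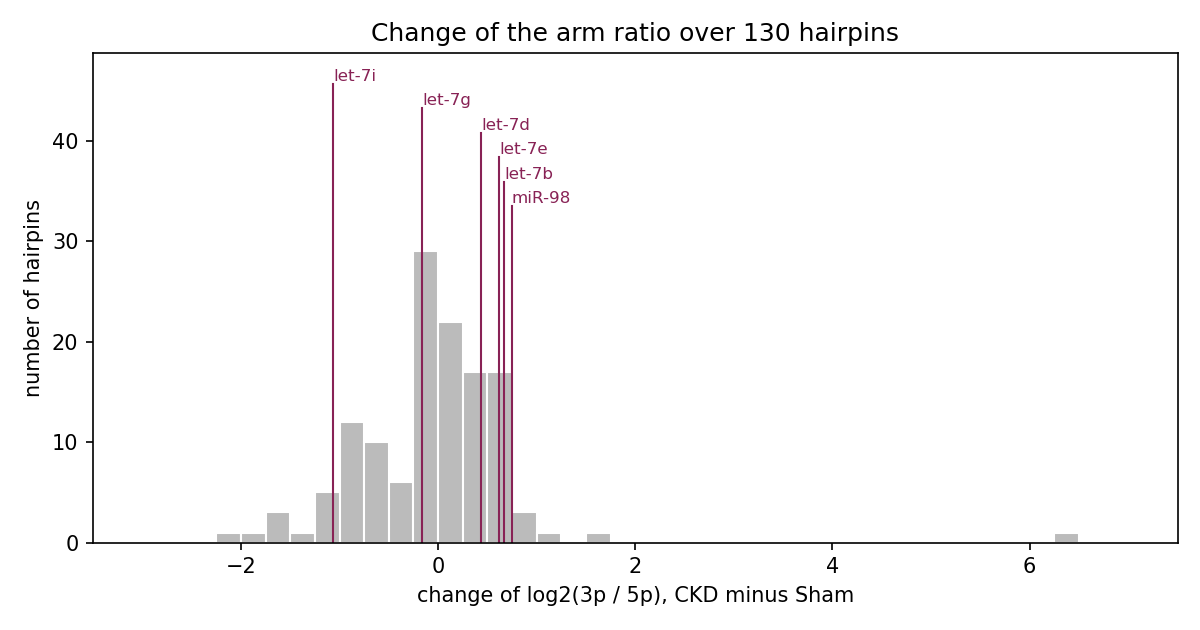
Change of the log2 ratio of 3p to 5p arm, CKD minus Sham, over 130 hairpins (grey bars, number of hairpins per bin), with 6 family hairpins marked by lines. let-7i lies at -1.06 on the low side, let-7g at -0.16, and the other 4 between 0.44 and 0.74.

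let-7j, listed as a miRNA of its own, has a 24 nt sequence that matches let-7i-5p at all but 1 of its first 22 bases (G8U) and runs 2 bases further. It is shown for that overlap, again with bases 2 to 8 in capitals.
let-7j: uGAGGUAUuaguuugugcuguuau

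Its values were 268 and 428 CPM in Sham, against 787 and 957 CPM in CKD. The entry was thus higher than miR-98-5p in every library. In the deposited CPM it rose by 1.35 (limma adjusted p = 0.011) and lay at -0.23 with TMM scaling (limma adjusted p = 0.44). Set against let-7i-5p, it amounted to 8.72% and 10.3% in Sham and 13.4% and 14.4% in CKD, higher in both CKD libraries (exact permutation p = 0.333, the smallest possible). As let-7i-5p had the lowest difference of the 5p arms, a rise against it is not particular to let-7j. Scaled to the family total, let-7j differed by 0.14 (limma adjusted p = 0.80). Whether reads of other members were counted as let-7j was not tested. let-7k, which has the family seed, had 0.23 to 0.78 CPM and was below the filter.

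miRNAs that share primary transcripts with let-7 members rose on the deposited scale and lay near 0 with TMM scaling. These are miR-99a-5p, miR-100-5p, miR-99b-5p, miR-125a-5p and miR-125b-5p, whose hairpins are grouped with let-7c-1, let-7a-2 and let-7e. Mir125b-1 lies 45114 bases from Mirlet7a-2. Coordinates of Mir99b and Mir125b-2 were not found in the sources used here, and miR-125b-5p cannot be assigned to 1 locus. All 5 rose on the deposited scale, by 1.32 to 1.65, against 82.9% of all entries, and with TMM scaling they lay between -0.26 and 0.06 with none past the threshold (limma; smallest adjusted p = 0.33, with 0 at an unadjusted p under 0.05; edgeR 0). let-7e-5p lay at -0.50 with TMM scaling (limma adjusted p = 0.26), and its neighbours miR-125a-5p and miR-99b-5p at -0.07 and 0.04. let-7c-5p lay at -0.43 and miR-99a-5p at 0.06. At the third group the distance to miR-100-5p was smaller: let-7a-5p lay at -0.37, miR-100-5p at -0.26 and miR-125b-5p at -0.00. The difference between a member and its neighbour was not tested.

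Outside the family, the entries whose profile over the 4 libraries was nearest to that of the family total were miR-10a-5p, miR-10b-5p, miR-146a-5p, miR-365-3p and miR-320-3p. The measure was the root mean square distance between centred log2(CPM + 1) profiles, over 97 entries with a mean of at least 100 CPM, and it ran from 0.05 for miR-10a-5p to 0.14 for miR-320-3p. miR-10a-5p, encoded in a Hox cluster, had 3169 and 4449 CPM in Sham, against 7416 and 9298 CPM in CKD. With 4 libraries such likeness is a description only.

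Markers of smooth muscle, the defining cell of the aortic wall, were all present: 4 of 4 had reads in every library, summing to 833695 and 774989 CPM in Sham, against 485612 and 488708 CPM in CKD. miR-143-3p makes up most of that sum: on the deposited scale 2 of the 4 were called higher and 1 lower, and with TMM scaling 2 were called lower. Summed markers of other cells were higher in both CKD libraries, on a scale where 82.9% of all entries were called higher, and with TMM scaling none of the 20 tested was called (limma, with 4 at an unadjusted p under 0.05; edgeR 0). All 3 red cell markers had reads in every library and summed to 213 and 810 CPM in Sham, against 1008 and 4754 CPM in CKD. Their sum was higher in the second library of each group, as were the family total and the leukocyte and neural sums. The 2 endothelial markers summed to 2899 and 3411 CPM in Sham, against 9989 and 9767 CPM in CKD, and the 4 leukocyte markers to 58.1 and 139 CPM in Sham, against 276 and 324 CPM in CKD, with reads of each in every library. Among 5 striated muscle markers, which summed to 509 and 622 CPM in Sham, against 1204 and 972 CPM in CKD, 1 was called higher in the deposited CPM, and miR-206-3p was at 0 in Sham 2. The liver marker miR-122-5p had 1.43 and 25.5 CPM in Sham, against 161 and 56.0 CPM in CKD. The 5 epithelial markers summed to 32.0 and 25.4 CPM in Sham, against 124 and 78.0 CPM in CKD, and the 2 neural markers to 31.3 and 36.4 CPM in Sham, against 107 and 142 CPM in CKD. The part of these cells in the family's values was not tested.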

How the data were processed

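Small RNA of aorta was measured in 2 Sham and 2 CKD libraries, each a pool of 4 samples. Per the labels' protocols, RNA of 18 to 30 nt was cut from a gel and ligated to adaptors; they mention no molecular identifiers, so a read is not a molecule. Bowtie and GRCm38 appear, without a version or role, per the submitters' processing notes; how miRNAs were annotated and counted was not stated in the sources used here. The deposited values were read as CPM, since they sum to about 1000000 per library, although the labels give no unit. In 3 deposited files all names stand above all values (unit other), and both were paired by order. Every value above 0 (100%) equalled a whole number of reads to within 0.005 CPM, which gave totals of 17520690 and 16878392 reads (Sham) and 17532748 and 16658810 (CKD).

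limma 3.58.1 (R 4.3.3, mean-variance trend) was run as described above, with TMM from edgeR 4.0.16 on the recovered reads. edgeR's quasi-likelihood test on those reads called 375 entries with library totals and 31 with TMM. The fits were also run on simulated counts in which miR-143-3p was unchanged and about as many entries were raised as lowered. These data differ from that setting, so the run is no check on the choice of scale. The members and lists were chosen with earlier results of these data known. Named were all members, the 3p arms of their hairpins, their cluster partners, other let-7 entries, miR-143-3p and the 5 nearest profiles; the other hairpins of the arm comparison were chosen after their values were seen. Alternatives were other scalings, filters, pseudocounts and variance settings, summed near-identical members, the replicate block and leaving out each library.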

Additional observations from a re-analysis of the deposited data

How the results depend on the processing

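With 2 libraries a group, and 2 residual degrees of freedom before limma borrows variance across entries, counts of calls moved easily. On the deposited scale 402 entries were called, 241 with a minimum mean of 10 CPM and 137 to 384 without 1 library, and the 10 members held 9 calls, or 0 to 9 without 1 library. With TMM scaling 37 entries were called, 21 without a filter on low values, and 0 to 7 without 1 library; at 0 calls, 92 entries (without CKD 1) and 109 (without CKD 2) had an unadjusted p under 0.05 (limma). Of the members 1 was called, 2 with a minimum of 10 CPM, upper-quartile scaling or totals without the 10 most abundant, and 0 without 1 library. On the family scale 16 entries were called, 41 with a minimum mean of 10 CPM, 10 without a variance trend, 27 with the geometric mean of the family, and 0 to 23 without 1 library (85 and 154 at an unadjusted p under 0.05 without CKD 1 and CKD 2, limma); of the members 1 was called, and 0 with a pseudocount of 10, without a trend or without 1 library.

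let-7i-3p kept its direction under every alternative run. With TMM scaling it ranged from -1.92 to -1.62 without 1 library. On the family scale it was -0.999 with a pseudocount of 10 (limma adjusted p = 0.056), -1.40 without a trend (0.061), and -1.55 to -1.23 without 1 library. With TMM scaling let-7d-5p, let-7f-5p and let-7g-5p reversed to 0.059, 0.018 and 0.061 on totals without miR-143-3p. let-7a-5p, near 0 on the family scale, reversed to 0.016 without Sham 1, 0.038 without CKD 1 and 0.011 with the geometric mean (-0.044 to 0.038 without 1 library). Its share of the family, -0.03 points, reversed to 0.18 and 0.43 points without those libraries (-0.48 to 0.43 without 1 library). The family's share of reads, 4.29 points higher in CKD, was -0.94 points of the reads other than miR-143-3p, and -4.54 points when the 10 most abundant entries, let-7c-5p among them, were left out of both sums. The cause of these changes was not tested, apart from the denominators themselves.

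The replicate numbers are not stated to pair libraries, and the deviations of same-numbered libraries correlated at 0.12 (TMM scale) across 479 entries. With the replicate block, TMM scaling called 10 entries and 0 members, with let-7i-3p at -1.75 (limma adjusted p = 0.062), and the family scale called 32 entries. On the deposited scale the block ended the calls of let-7i-5p (limma adjusted p = 0.054) and miR-98-5p (0.052). Without a filter on low values, let-7e-5p (0.058) and let-7i-5p (0.086) lost theirs.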
